A study of Sparus aurata with 5 samples.

Results

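The functional ingredient LB-GREENboost was followed over 3 inclusion levels, 0, 0.5 and 1% of the feed, in the anterior intestine of juvenile gilthead seabream (*Sparus aurata*). The members were chosen by diet: all fish given the diets CT, GB5 and GB10, which make 36 of the 60 fish and 3 of the 5 diets of the series. The CT feed held no microalgae, GB5 held 0.5% and GB10 held 1% of the ingredient in place of wheat meal. LB-GREENboost is made mainly from 2 hydrolysed microalgae, of the genera *Arthrospira* and *Microchloropsis*. It also carries betaine, choline and calcium carbonate, so algae and additives rise together with inclusion and cannot be told apart. In each diet 12 fish were measured by real-time qPCR, and relative expression is given here for 14 genes as a ratio to the reference gene *eef1a*, scaled to a mean of 1 in CT fish. The labels place several fish in each tank but the files name no tank for a fish, so the fish were the replicates. Where tanks differ, the p-values below are too small.

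The panel is about the seal between the cells that line the gut and about the immune cells beneath it. Tight junctions close the gap between neighbouring epithelial cells, and their strands are built of claudins. In mammals some claudins, such as the counterparts of *cldn4* and *cldn5*, tighten the seal, while that of *cldn15* forms pores for small cations. Occludin is a further membrane protein of the same strands and takes part in their assembly and remodelling. The panel holds 7 claudins and 3 occludins. It also holds 4 immune-related genes: *igm*, the heavy chain of the main systemic antibody of bony fish, made by B cells, *cd4*, the co-receptor of helper T cells, *il10*, a cytokine that dampens inflammation, and *tlr9*, a receptor for DNA with unmethylated CpG. The piece of gut is a mixture of cells, so fewer cells of a type and less RNA in each of them cannot be told apart. The markers of B cells and helper T cells, *igm* and *cd4*, have a deposited ratio in all 36 fish. For *igm* that ratio follows from the deposited cycle in only 24 of them.

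For these 3 diets 11 of 504 possible ratios are missing. Of these, 5 have no usable cycle, and 6 have a cycle but no ratio. These 6 belong to *cldn24* (1 CT fish), *oclnl* (2 GB5 fish) and *tlr9* (1 CT fish and 2 GB5 fish), and none of them to GB10. Each was the highest or second highest value of its gene in its diet when recomputed from the cycle, and is given beside the result it touches. The deposited quantification cycle of *eef1a*, which is lower when there is more template, was 18.8 ± 0.498 in CT, 18.7 ± 0.309 in GB5 and 18.7 ± 0.354 in GB10 (SD, n = 12 fish each). Its slope over inclusion was -0.08 cycles from 0 to 1% (two-sided permutation test, p = 0.615). The occludin ratios follow from a second list of *eef1a* cycles, described with those genes. Mean cycles of the targets lay between 24.2 for *oclnc* and 32.5 for *cldn4*. The difference between diets that each gene could show is set by the spread between fish, with a 95% interval that reached 0.276 to 0.39 log2 units to either side for *cldn15*, and 1.32 to 1.70 for *cldn3*.

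Few differences passed the test. At p under 0.05 before adjustment, *oclnl* was lower in GB5 than in CT, *cldn24* was higher in GB10 than in CT, and no gene differed between GB10 and GB5. Over the 3 levels the trend was upward for *cldn24* and downward for *cldn4l*. With Benjamini-Hochberg adjustment over the 14 genes none of these passed, the lowest adjusted values being 0.283 in GB5 against CT, 0.414 in GB10 against CT, 0.792 in GB10 against GB5 and 0.344 in the trend (two-sided permutation tests). The genes called make up 7.14% of the 14 tested in GB5 against CT, 7.14% in GB10 against CT, 0% in GB10 against GB5 and 14.3% in the trend.

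**Figure D1:**
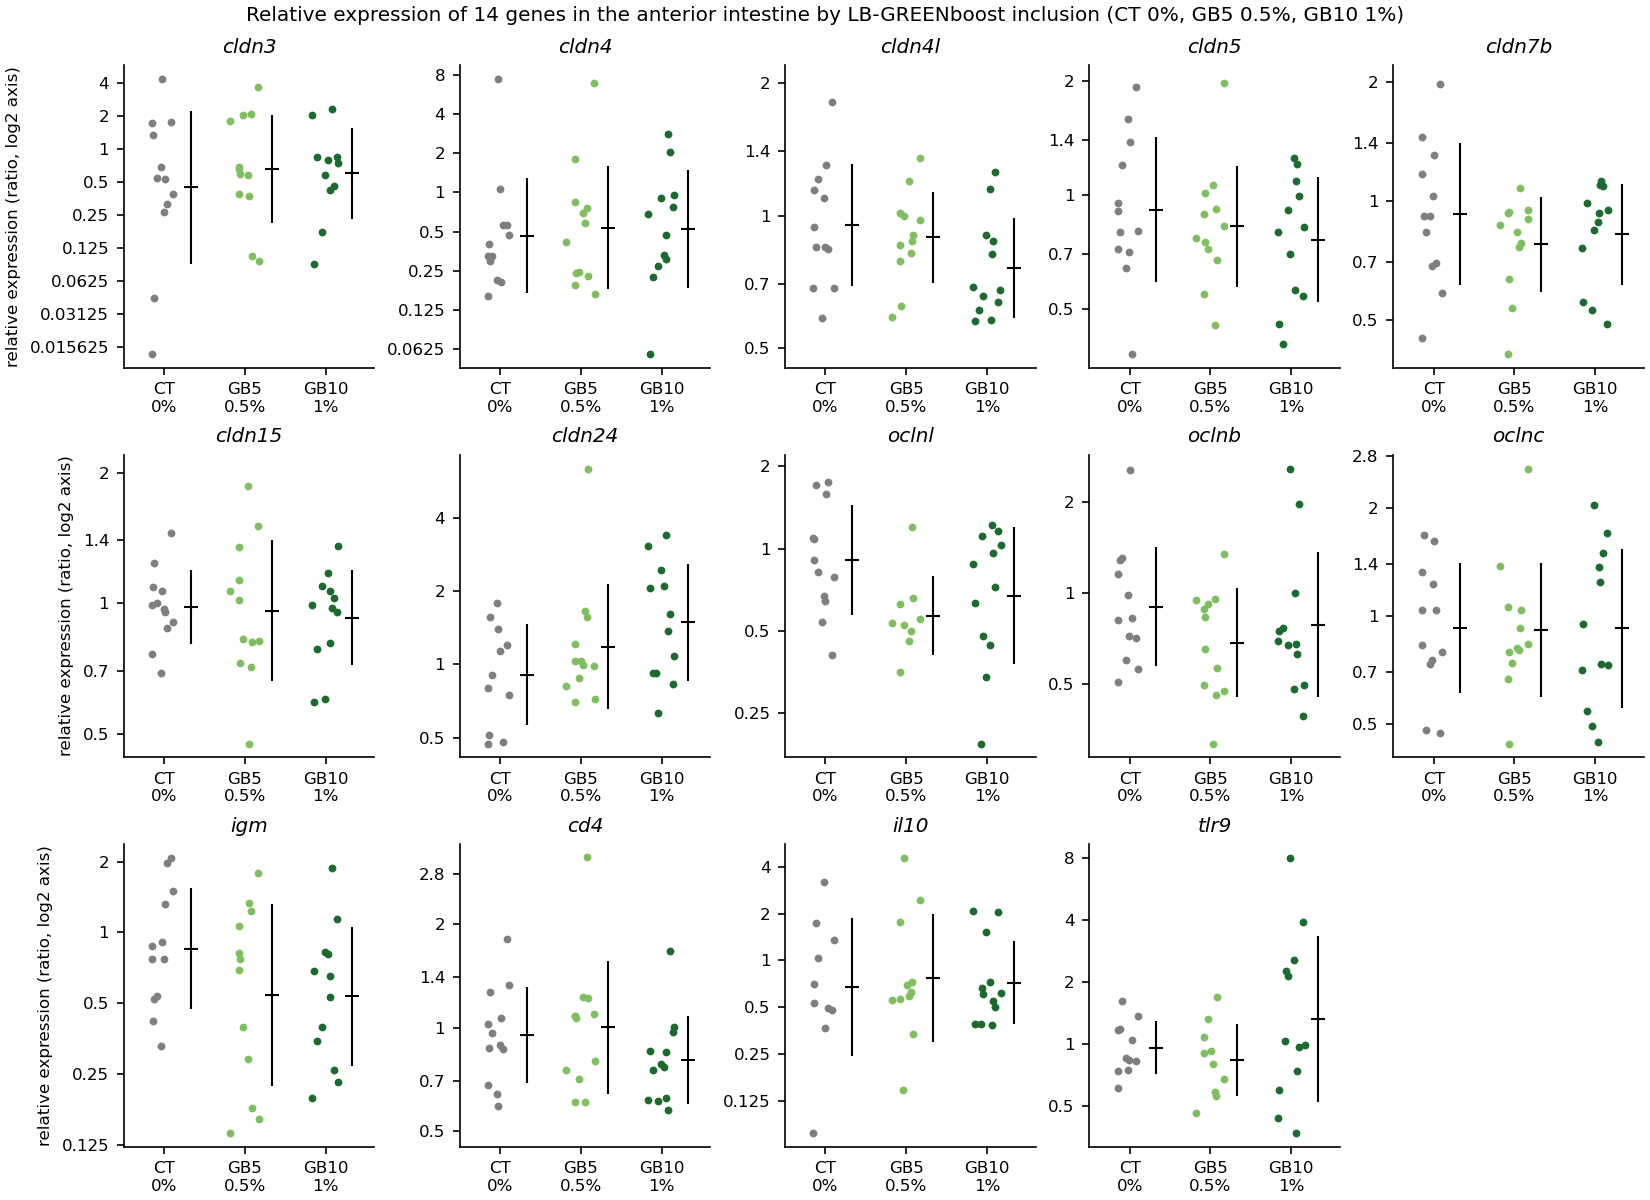
Relative expression (ratio to *eef1a* and to the CT mean, log2 axis) of each fish, in 1 panel per gene, by diet from 0 to 1% LB-GREENboost. Points are deposited ratios of single fish, and the black mark and bar are the mean ± SD on the log2 scale. The diets overlap in every panel, and the highest *cldn24* values in the deposited data are those of 1 GB5 fish at 6.37 and of GB10 fish up to 3.41.

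Among the claudins, *cldn24* was the only gene of the panel whose log2 mean was higher at each next level. In CT its ratio ran from 0.473 to 1.78 with a median of 0.905 (n = 11 fish). In GB5 it ran from 0.698 to 6.37 with a median of 1.01 (n = 12). In GB10 it ran from 0.631 to 3.41 with a median of 1.49 (n = 12). The groups overlap, but 5 of the 12 GB10 fish lay above the highest CT fish and 10 of the 12 above the CT median. The mean log2 relative expression was 0.72 higher in GB10 than in CT (95% interval 0.07 to 1.37, or 1.64-fold with bounds of 1.05 and 2.59; permutation test, p = 0.0327). In GB5 it was 0.39 higher than in CT (95% interval -0.26 to 1.06, permutation test, p = 0.266). From 0 to 1% inclusion the fitted slope was 0.71 log2 units, with a standard error of 0.32 (permutation test of the slope, p = 0.0341), and the GB5 mean lay 0.03 from the midpoint of the other two (permutation test, p = 0.927).

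This increase depends on 1 control fish. The *cldn24* cycle of CT fish A6 has no deposited ratio and corresponds to a ratio of 10.3, above every other fish of the 3 diets. With it, the mean ratio was 1.70 ± 0.917 in GB10 and 1.77 ± 2.71 in CT (SD, n = 12 each). The log2 difference, GB10 minus CT, was then 0.42 (permutation test, p = 0.328), and the slope had a p of 0.289 in a permutation test. In the other direction, a GB5 fish with a ratio of 6.37 was kept in the deposited data. Without that fish GB10 was 0.55 above GB5 on the log2 scale (permutation test, p = 0.0499). Single fish among the kept values also moved the call. It was lost without CT fish A1, A4 or A11, or without GB10 fish A3, A4, A6, A9 or A10, with the highest permutation p at 0.0623. The trend was lost without the same 8 fish, with permutation p up to 0.0674.

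The claudin 4-like gene *cldn4l* went the other way. Its deposited ratios ran from 0.584 to 1.81 with a median of 0.896 in CT, from 0.588 to 1.35 with a median of 0.889 in GB5, and from 0.576 to 1.26 with a median of 0.682 in GB10 (n = 12 fish each). The log2 mean of GB5 was -0.09 from CT (95% interval -0.44 to 0.25, permutation test, p = 0.579). In GB10, 9 of the 12 fish were below the median of GB5 and also 9 below that of CT. The slope was -0.33 log2 units from 0 to 1%, with a standard error of 0.16 (permutation test, p = 0.0492). Neither other pair was under 0.05: GB10 minus CT was -0.33 (95% interval -0.69 to 0.03, permutation test, p = 0.0694) and GB10 minus GB5 was -0.23 (95% interval -0.54 to 0.07, permutation test, p = 0.127). The trend stayed under 0.05 in 14 of 36 repeats with 1 fish left out, and the permutation p was highest, 0.114, without CT fish A9, the fish with the highest ratio. It was under 0.05 in 1 of 7 alternatives (permutation or limma p between 0.0492 and 0.137), and that one holds the same *cldn4l* values. It was lost with the linear ratio, another reference or none, fish with all genes, ranks and limma. For GB10 against CT 1 of 7 alternatives was under 0.05, the cycles with no reference gene (permutation or limma p between 0.0321 and 0.165). With 1 fish left out, GB10 against CT was under 0.05 in 5 of 36 repeats (permutation p between 0.0269 and 0.136). GB10 against GB5 was so in 1 of 36, without GB10 fish A4 (permutation p between 0.042 and 0.222).

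**Figure D2:**
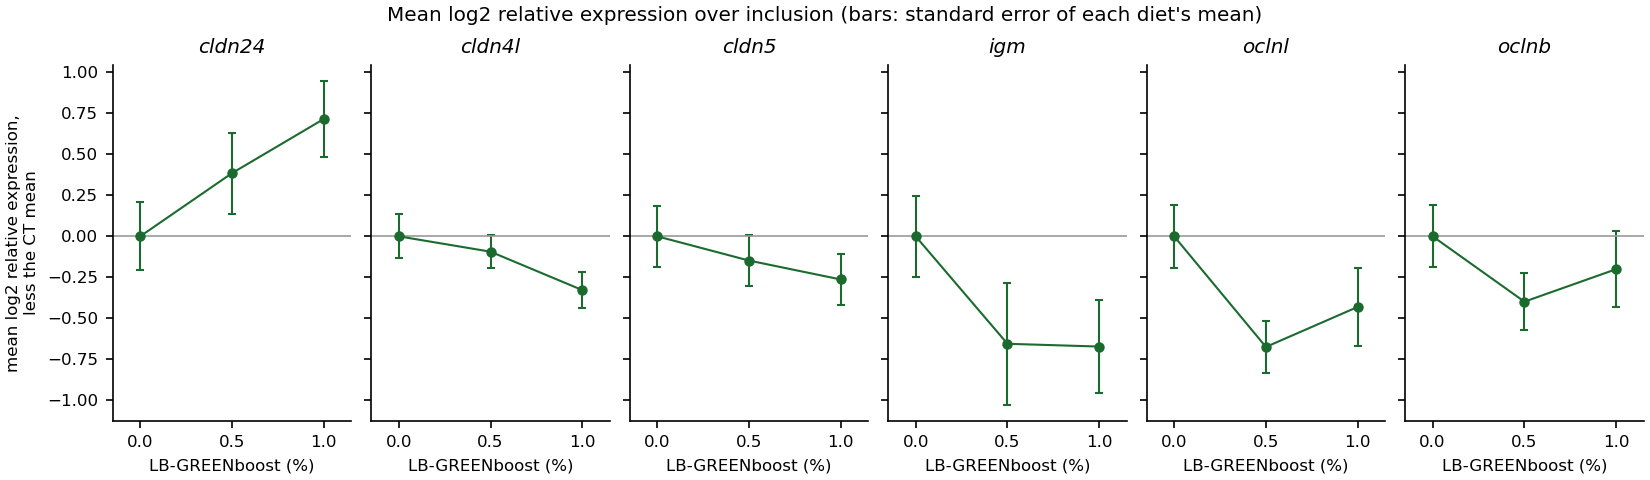
Mean log2 relative expression less the CT mean (vertical axis, log2 units) against LB-GREENboost inclusion in percent, for the 6 genes described with full statistics. Bars are the standard error of each diet's mean. *cldn24* ends at 0.72 and *cldn4l* at -0.33 in GB10, while *oclnl* is lowest in GB5 at -0.67 and *igm* is close to -0.66 in both supplemented diets.

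The other claudins showed no difference that passed the test. *cldn5*, whose mammalian counterpart tightens the barrier of blood vessels, had ratios from 0.381 to 1.93 in CT (median 0.854), 0.454 to 1.98 in GB5 (median 0.80) and 0.405 to 1.25 in GB10 (median 0.81), with 12 fish each. The ranges overlap over most of their length. Its log2 mean was -0.26 from CT in GB10 (95% interval -0.76 to 0.24, permutation test, p = 0.287) and the slope had a permutation p of 0.262. For *cldn7b* the ratio was 0.801 ± 0.191 in GB5 and 0.853 ± 0.225 in GB10, against 1.00 ± 0.424 in CT (SD, n = 12 each). *cldn15*, whose mammalian counterpart forms pores, had a small spread, at 1.02 ± 0.389 in GB5 and 0.952 ± 0.225 in GB10, against 1.00 ± 0.202 in CT. For *cldn15* the 95% interval of GB10 minus CT was -0.36 to 0.19 on the log2 scale, or 0.778-fold to 1.14-fold.

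*cldn3* and *cldn4* came up late in the reaction and varied most between fish. Mean *cldn3* was 1.10 ± 1.10 in GB5 (n = 12) and 0.851 ± 0.716 in GB10 (n = 11), against 1.00 ± 1.22 in CT (n = 12). Its lowest and highest CT fish stood at 0.0135 and 4.36. Mean *cldn4* was 1.09 ± 1.88 in GB5 and 0.82 ± 0.82 in GB10, against 1.00 ± 2.03 in CT (SD, n = 12 each). For both genes GB10 was below CT in the mean ratio but above CT in the mean of log2 values, by 0.41 for *cldn3* and 0.18 for *cldn4*, and neither passed the test (permutation tests, p = 0.62 and p = 0.78). Over the 7 claudins the median log2 difference was -0.03 in GB5 against CT and -0.08 in GB10 against CT, beside -0.06 and -0.13 over all 14 genes.

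Of the 3 occludins only *oclnl* passed a test, in GB5 against CT. The log2 means of all 3 were below CT in both supplemented diets, as were those of 9 of all 14 genes in each, and for *oclnc* by at most 0.02. The *oclnl* ratio ran from 0.408 to 1.75 with a median of 0.863 in CT (n = 12 fish), from 0.353 to 1.20 with a median of 0.535 in GB5 (n = 9) and from 0.193 to 1.22 with a median of 0.80 in GB10 (n = 12). In GB5, 8 of the 9 fish lay below the CT median. Within the range of CT fish were 8 of the 9, and 1 lay below it. Its mean log2 value was 0.67 lower in GB5 than in CT (95% interval of the difference -1.23 to -0.12, or 0.626-fold with bounds of 0.428 and 0.92; exact permutation test, p = 0.0202). In GB10 the difference from CT was -0.43 (95% interval -1.07 to 0.20, permutation test, p = 0.176). GB10 minus GB5 was 0.24 (95% interval -0.41 to 0.88, exact permutation test, p = 0.442), so a difference between the supplemented diets was not detected. The departure from a straight line was under 0.05 for 0% of the genes, with the lowest permutation p, 0.106, for *oclnl*.

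Here 3 GB5 fish have no ratio. Fish A5 has no usable *oclnl* cycle. Fish A3 and A8 have cycles that correspond to ratios of 2.07 and 2.57, both above the highest CT fish at 1.75. With these 2 fish, *oclnl* averaged 0.913 ± 0.736 in GB5 (n = 11) against 1.00 ± 0.459 in CT (n = 12, SD), the GB5 median was 0.553, and the log2 difference was -0.31 (permutation test, p = 0.366). The lower *oclnl* in GB5 thus holds only for the deposited ratios. Among those it held without any single one of the fish compared, with exact permutation p between 0.00514 and 0.0433.

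The occludin ratios carry a further limit. They follow from a second list of *eef1a* cycles, in which 11 of the 36 values occur in the first list under the same diet, 25 occur there only under another diet, and 0 stand with the same fish. Whether a fish number in the occludins names the same fish as in the other genes is therefore not known. Nor is it known whether the second list, or the occludin cycles with it, stands under the right diet. The comparisons of diets for *oclnl*, *oclnb* and *oclnc* take the diet labels as they stand. On the second list GB5 minus CT was -0.17 cycles (permutation test, p = 0.293), against -0.11 on the first (permutation test, p = 0.516). The slope of the second list was -0.14 cycles from 0 to 1% (permutation test, p = 0.413). When the first list was used for all genes, *oclnl* in GB5 was 0.58 below CT on the log2 scale (exact permutation test, p = 0.0135). On the *oclnl* cycles with no reference gene it was 0.48 below (exact permutation test, p = 0.0182). Both of these settings still leave out GB5 fish A3 and A8, so they do not show what those fish change. They also keep the diet labels of the occludin cycles, so they do not test those labels. The first list is joined to the *oclnl* cycles by fish number, which may not name the same fish.

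For *oclnb* the ratio ran from 0.508 to 2.55 in CT (median 0.818), from 0.317 to 1.34 in GB5 (median 0.741) and from 0.39 to 2.58 in GB10 (median 0.686), with 12 fish each. The highest GB5 fish stood below the highest of the other diets. Below the lowest CT fish lay 4 GB5 fish and 3 GB10 fish, and 1 GB10 fish lay above the highest CT fish. Its log2 mean differed from CT by -0.40 in GB5 (95% interval -0.93 to 0.13, permutation test, p = 0.135) and by -0.20 in GB10 (95% interval -0.82 to 0.42, permutation test, p = 0.51). *oclnc* was the flattest gene of the panel, at 1.01 ± 0.547 in GB5 and 1.04 ± 0.526 in GB10, against 1.00 ± 0.40 in CT (SD, n = 12 each). Its log2 difference was -0.02 for GB5 and -0.00292 for GB10, with 95% intervals no wider than 0.578 to either side.

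**Figure D3:**
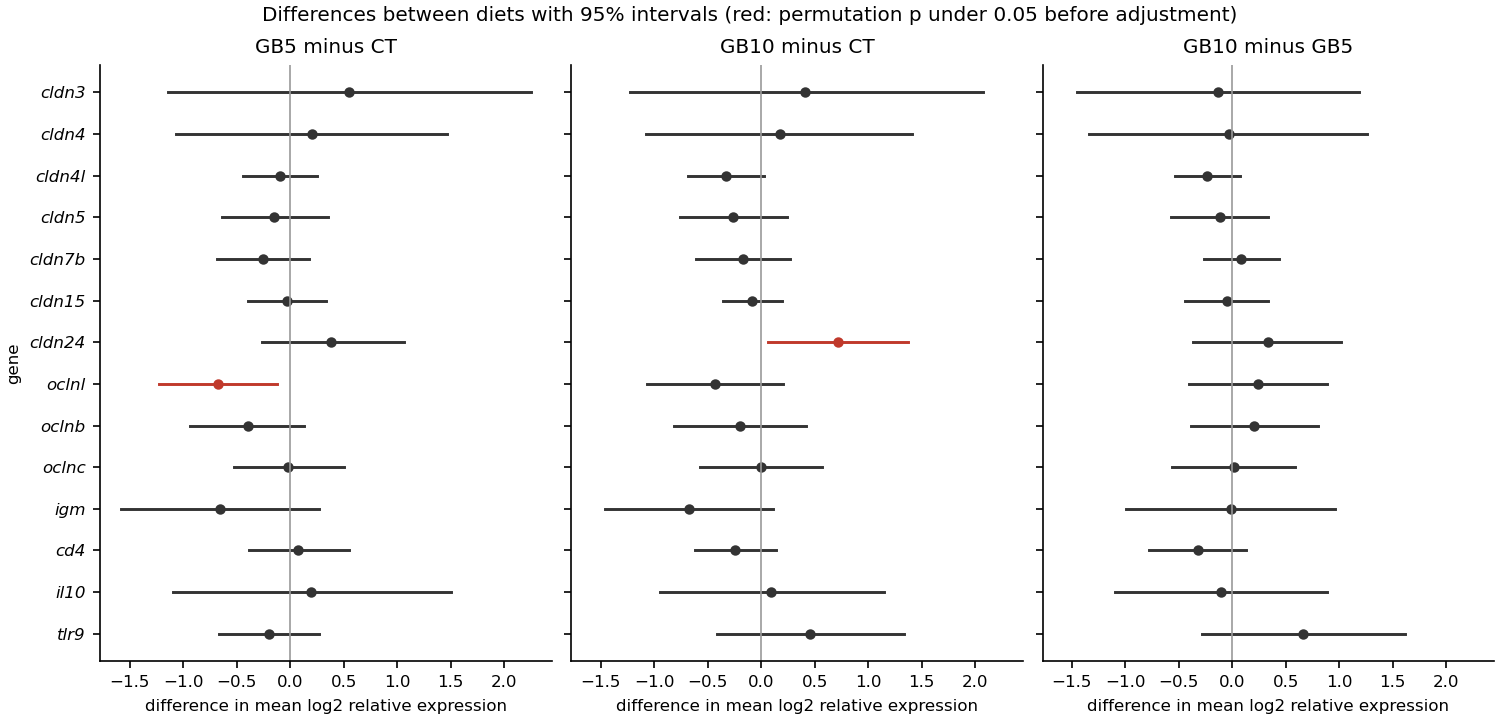
Differences in mean log2 relative expression (horizontal axis) of GB5 minus CT, GB10 minus CT and GB10 minus GB5 for the 14 genes. Points are the differences, bars are 95% intervals from the permutation test, and red marks p under 0.05 before adjustment. Red are *oclnl* at -0.67 in GB5 minus CT and *cldn24* at 0.72 in GB10 minus CT, and no bar is red in GB10 minus GB5.

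Of the immune-related genes, *igm* had the lowest means in the supplemented fish. Its ratio ran from 0.329 to 2.08 in CT with a median of 0.823, from 0.14 to 1.79 in GB5 with a median of 0.731, and from 0.197 to 1.88 in GB10 with a median of 0.592 (n = 12 fish each). In GB10, 9 of the 12 fish lay below the CT median. The ranges overlap, with 4 GB5 fish and 3 GB10 fish below the lowest CT fish and 0 of either diet above the highest. On the log2 scale *igm* differed from CT by -0.66 in GB5 (95% interval -1.58 to 0.27, permutation test, p = 0.155) and by -0.67 in GB10 (95% interval -1.46 to 0.11, permutation test, p = 0.0887). Both doses gave about the same value, with a GB10 minus GB5 difference of -0.02 (95% interval -0.99 to 0.96, permutation test, p = 0.971). Leaving out GB10 fish A6, the highest of its diet, brought GB10 against CT to a permutation p of 0.0284. Without CT fish A11, the lowest of its diet, it was also under 0.05. These were 2 of 36 repeats with 1 fish left out. In 12 of the 36 fish, 4 in each diet, the *igm* cycle in the files is identical to that of *cldn15*, and the *igm* ratio does not follow from it. Without those fish the differences from CT were -0.44 in GB5 and -0.54 in GB10 (exact permutation tests, p = 0.372 and p = 0.253), a check chosen after seeing the data. CT fish A9 and A11, the highest and lowest of their diet, are among those 12 fish. The counts outside the CT range and the repeat without A11 therefore rest on such ratios.

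*cd4* had a mean ratio of 1.12 ± 0.676 in GB5 and 0.84 ± 0.297 in GB10, against 1.00 ± 0.342 in CT (SD, n = 12 each). In GB10, 11 of the 12 fish were below the GB5 median, yet the log2 difference GB10 minus GB5 was -0.32 with a 95% interval of -0.78 to 0.13 (permutation test, p = 0.17). Leaving out GB10 fish A4, the highest of its diet at 1.67, brought *cd4* under 0.05 in GB10 against CT and in GB10 against GB5. In each pair this was 1 of 36 repeats with 1 fish left out. *il10* was 1.19 ± 1.31 in GB5 (n = 11) and 0.873 ± 0.631 in GB10 (n = 12), against 1.00 ± 0.921 in CT (n = 10). Its medians were nearly equal, at 0.62 in CT, 0.622 in GB5 and 0.614 in GB10.

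For *tlr9*, the spread of the deposited ratios was widest in GB10, the diet in which no high value lacks a ratio. The deposited ratio ran from 0.614 to 1.62 in CT with a median of 0.859 (n = 11 fish), from 0.462 to 1.69 in GB5 with a median of 0.853 (n = 10) and from 0.369 to 8.03 in GB10 with a median of 1.01 (n = 12). GB10 fish lay both above and below the others: 5 were above the highest CT fish and 3 below the lowest. The SD on the log2 scale was 0.43 in CT, 0.58 in GB5 and 1.34 in GB10 (permutation test of the spread over the 3 diets, p = 0.01, Benjamini-Hochberg value 0.14), and *tlr9* was the only gene under 0.05 in that test, 7.14% of the panel. It is described here for that test, outside the rule for named genes. With the mean of the other genes as the reference the permutation p of the spread was 0.11. The mean log2 value in GB10 was 0.46 above CT (95% interval -0.41 to 1.34, permutation test, p = 0.295).

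The spread of *tlr9* also rests on which fish have a ratio. The cycle of CT fish A6 corresponds to 12.9, that of GB5 fish A4 to 16.7 and that of GB5 fish A8 to 4.22, while the highest GB10 fish at 8.03 and 3.92 were kept. With every cycle, the log2 SD was 1.16 in CT, 1.46 in GB5 and 1.34 in GB10, and the permutation test of the spread gave p = 0.635. GB10 was then 0.15 above CT on the log2 scale (permutation test, p = 0.78).

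**Figure D4:**
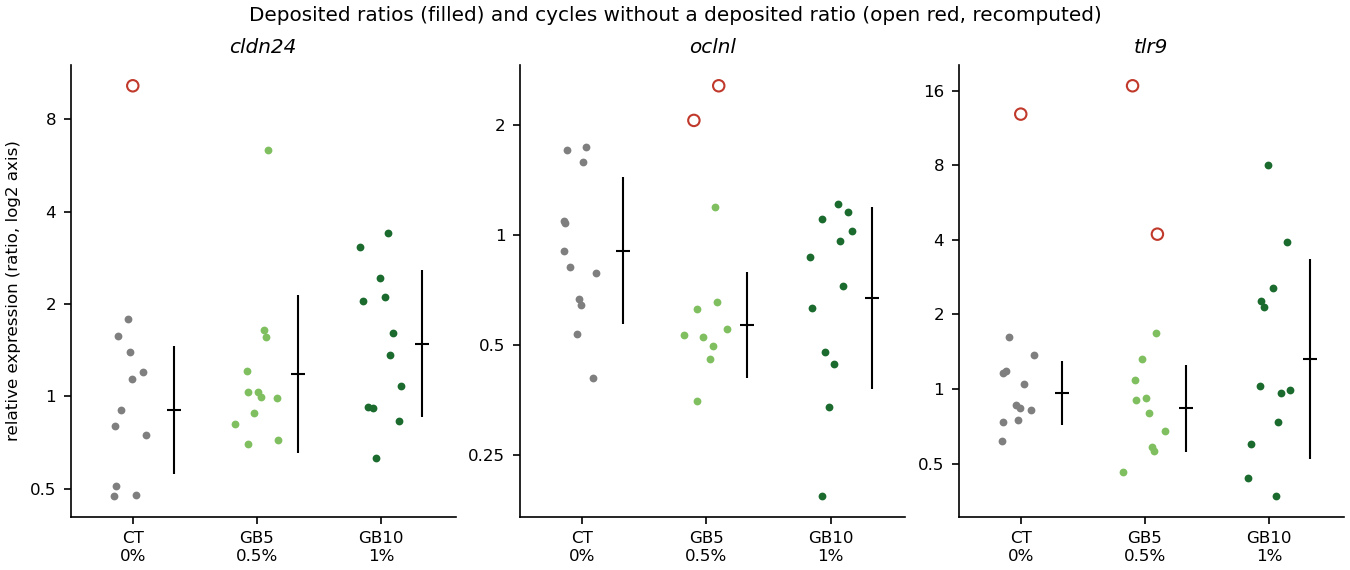
Relative expression (ratio, log2 axis) of *cldn24*, *oclnl* and *tlr9* by diet. Filled points are deposited ratios with their log2 mean ± SD in black, and open red circles are ratios recomputed from the 6 cycles that have no deposited ratio. The circles lie at 10.3 in CT for *cldn24*, at 2.07 and 2.57 in GB5 for *oclnl*, and at 12.9 in CT and 4.22 and 16.7 in GB5 for *tlr9*, and no circle is in GB10.

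Some of the fish with very high *tlr9* were also high in other genes. The genes compared here, *tlr9*, *cldn4*, *cldn24*, *cldn3* and *il10*, had the latest mean cycles of the panel, from 29.7 for *il10* to 32.5 for *cldn4*. CT fish A6, at 12.9 for *tlr9*, was the highest CT fish for *cldn4* (7.41), *cldn24* (10.3), *cldn3* (4.36) and *il10* (3.2). GB5 fish A4, at 16.7 for *tlr9*, was likewise the highest GB5 fish for *cldn4* (6.87), *cldn24* (6.37), *cldn3* (3.72) and *il10* (4.58). In GB10 the highest *tlr9* fish, A6, was first of its diet for *cldn4* (2.83) and *cldn3* (2.35), second for *cldn24* (3.07) and number 3 for *il10* (1.52). The second highest *tlr9* fish of the supplemented diets were not high in *cldn3*, where GB5 fish A8 was number 5 and GB10 fish A4 number 8 of its diet. The deposited table therefore holds these fish for *cldn4*, *cldn3* and *il10* in all 3 diets, but for *tlr9* only in GB10. Outside the genes compared, GB5 fish A4 was also the highest of its diet for *cldn5* (1.98), *cldn4l* (1.35) and *igm* (1.79). For *cldn15* (1.51) only GB5 fish A2 (1.86) was above it, and for *cldn7b* (0.947) only GB5 fish A7 (1.08). For *cd4* it stood at 1.10, where the highest GB5 fish, A7, stood at 3.14. CT fish A6 was high for *cldn5* (1.59), below CT fish A9 (1.93), and was the lowest CT fish for *cd4* (0.59).

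Over all 36 fish, as deviations from the mean of their diet, log2 *cldn4* and *tlr9* were correlated with Pearson's r = 0.867 and Spearman's rho = 0.716 (permutation tests within diets, both p = 1e-05, the smallest these permutations can give; Benjamini-Hochberg 0.0001125 for r). Without the 2 fish farthest from the median of *cldn4*, r was 0.767. Within the diets r was 0.804 in CT, 0.914 in GB5 and 0.873 in GB10 (n = 12 each). On the deposited ratios alone it was 0.711 (n = 33). Both genes share the *eef1a* cycle of a fish, and on the cycles with no reference gene r was 0.868. In any pair of genes those cycles also share the fish's amount of template, so r with no reference gene still holds a shared term. *cldn4* with *cldn24* (r = 0.797) and *cldn24* with *tlr9* (r = 0.792) followed. *cldn4*, *tlr9* and *cldn24* are among the genes with the latest mean cycles. For *cldn4l* with *cldn5* r was 0.702 relative to *eef1a* and 0.425 with no reference gene. These are 4 of 45 pairs among 10 genes that share an *eef1a* list, without *igm*. All 45 had r above 0, with a median of 0.427, and 26 were under 0.05 after Benjamini-Hochberg adjustment over the pairs. High r was not confined to the latest genes. *cldn5*, with a mean cycle of 28.2, had r = 0.638 with *cldn24*, 0.577 with *tlr9* and 0.443 with *cldn4*. For *cldn3* with *tlr9* r was 0.512. The same *eef1a* cycle enters both genes of every pair. On the cycles with no reference gene 43 of the 45 had r above 0, and *cldn4l* with *cldn15*, for example, had r = 0.158 in place of 0.457.

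**Figure D5:**
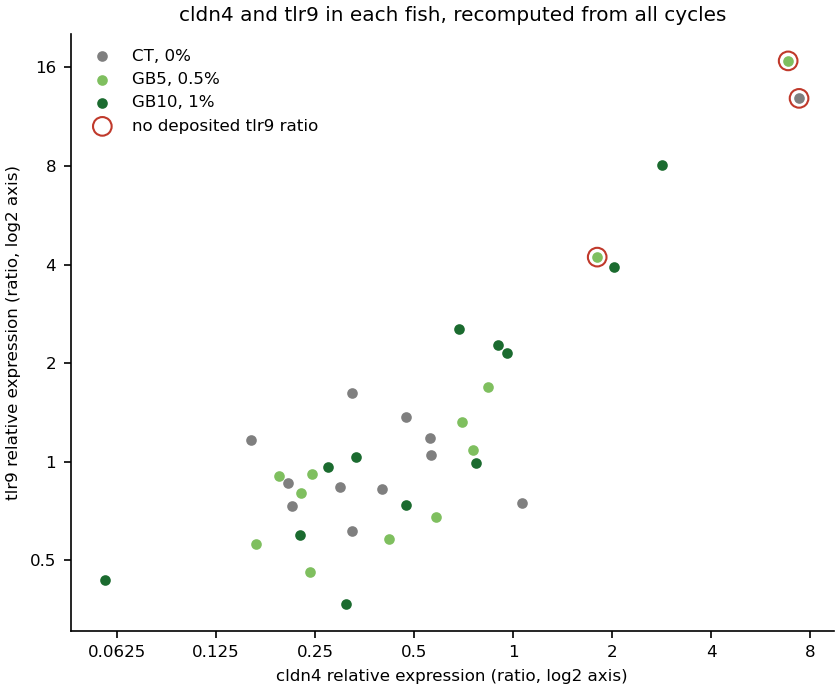
*tlr9* (vertical axis) against *cldn4* (horizontal axis), both as ratios recomputed from all cycles on log2 axes, with 1 point per fish coloured by diet. Circled fish have no deposited *tlr9* ratio. The circled points, at *tlr9* values of 4.22, 12.9 and 16.7, lie at the upper right together with the GB10 fish at 3.92 and 8.03.

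Across all genes together the diets were not told apart. In the 27 fish with a ratio for every gene (9 in CT, 7 in GB5 and 11 in GB10), diet accounted for 8.47% of the variance of the scaled log2 profile (permutational multivariate analysis of variance, p = 0.333). The profile joins genes by fish number. Whether the occludin numbers name the same fish as the others, or fish of the same diet, is not known. Direction was mixed: on the log2 scale 5 genes were higher and 9 lower than CT both in GB5 and in GB10. Counted on the mean ratio instead, 7 were higher and 7 lower in GB5, and 3 higher and 11 lower in GB10, since *cldn3*, *cldn4*, *oclnc* and *il10* in GB10 and *cldn15* and *oclnc* in GB5 change sign with the scale. Ordered over 0, 0.5 and 1%, the mean of 1 gene was higher at each next level (*cldn24*), that of 4 was lower at each (*cldn4l*, *cldn5*, *cldn15* and *igm*), 4 genes were highest in GB5 and 5 lowest in GB5. This order describes the log2 means and was not tested.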

How the data were processed

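Intestinal RNA of single fish was reverse-transcribed and amplified in duplicate by the authors, and 1 quantification cycle per fish and gene was deposited, a log2-scale value that was not normalized. The authors also deposited relative expression, a ratio computed by the ΔΔCT method relative to *eef1a* and the mean of CT fish, after outliers had been removed with the ROUT method (Q = 1%). A deposited table of fold changes and their tests between diets was not used. The cycle software and threshold are not given in the sources used here, and the spread between duplicate wells is unknown.

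Log2 of the deposited ratio was analysed with no pseudocount and no filter. Diets came from the sample labels. Pairs of diets, the slope over inclusion, the departure from a straight line and the spread were compared by permutation tests of fish with 100000 resamples. The tests were two-sided, except the spread, which had a one-sided test of F. Only pairs in which a diet had under 10 fish were compared by exact enumeration instead. The threshold was p under 0.05, with Benjamini-Hochberg adjustment over 14 genes and over 42 pair tests, and 95% intervals were obtained by inverting the test. Ratios were recomputed from all cycles with the *eef1a* list that gives the deposited ratios (within 0.01 log2), and a cycle of 0 counted as absent. Alternatives were the linear ratio, these recomputed ratios, the mean of the other genes or no gene as reference, 1 *eef1a* list, fish with all genes, ranks, limma's moderated test and leaving out each fish. Full statistics were given for genes under 0.05 in a pair or the trend, the 3 with the smallest trend p, and *cldn4l*, *oclnb*, *cldn5* and *igm*. Members, lists and this rule were chosen with earlier results of these data known. The resampled pair test with its interval, the slope test and the spread test were tested on simulated normal values. For the pair and slope tests these had the same spread in each diet. The exact enumeration, the departure, the profile and the correlations were not simulated. Tools were limma 3.58.1 in R 4.3.3 and, in Python 3.11.15, matplotlib 3.10.9, pandas 2.3.3, numpy 2.4.6 and scipy 1.17.1.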

Additional observations from a re-analysis of the deposited data

Results flagged for a closer look

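In GB5 fish, 4 cycles without a deposited ratio gave values above the highest CT fish that has one. For *oclnl* these were 2.07 in fish A3 and 2.57 in fish A8, with the highest deposited CT ratio at 1.75. For *tlr9* these were 16.7 in fish A4 and 4.22 in fish A8, with the highest deposited CT ratio at 1.62 and a recomputed one of 12.9 in CT fish A6. Fish number A8 is in both pairs. In *cldn4*, whose ratios were all deposited, A4 and A8 were the highest and second highest GB5 fish, and A3 was number 10 of 12. The *oclnl* ratios follow from the second *eef1a* list. Whether A3 and A8 of *oclnl* are the same fish as in *tlr9* and *cldn4* is not known. The reason why each ratio is missing was not tested.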

How the results depend on the processing

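Recomputed from all cycles, 0 genes were under 0.05 in GB5 against CT, in GB10 against CT and in the spread, and 1 gene, *cldn4l*, in the trend. This setting adds the 6 cycles without a deposited ratio and leaves out the 12 *igm* cycles that are identical to *cldn15*, and differs in nothing else. With Benjamini-Hochberg adjustment over 14 genes or over 42 tests, 0 genes passed in GB5 against CT and 0 in GB10 against CT. With no reference gene 2 genes, *cldn4l* and *cldn24*, were under 0.05 in GB10 against CT. In the trend, 0 genes passed on the linear ratio, and 1, *cldn24*, with the mean of the other genes, with no reference gene, with ranks, with limma and in fish that have all genes. With the mean of the other genes as the reference 0 genes passed in the spread. The cause was not tested for the changes with reference, scale or test. Leaving out each fish in turn gave 0 to 2 genes in GB10 against CT, in GB10 against GB5 and in the trend, 0 to 1 in the departure from a straight line, 1 to 2 in the spread and 1 throughout in GB5 against CT. Across settings, *oclnl* in GB5 against CT was under 0.05 in 7 of 8 alternatives (permutation or limma p between 0.0135 and 0.366), *cldn24* in GB10 against CT in 6 of 7 (between 0.00292 and 0.328) and in the trend in 5 of 7 (between 0.00441 and 0.289), and *cldn4l* in the trend in 1 of 7 (between 0.0492 and 0.137). Only the recomputed ratios add the cycles without a deposited ratio. The other alternatives leave those cycles out, so for *oclnl* and *cldn24* these counts do not test the dependence on them. For *oclnl*, the mean of the other genes, 1 *eef1a* list and fish with all genes also join it to other genes by fish number. Whether that number names the same fish is not known.

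Small log2 differences turned sign. *cldn4l* in GB5 against CT was 0.02 (0.0183) with no reference gene, and *cldn5* in GB10 against GB5 was 0.00922 in fish with all genes. *oclnl* in GB10 against GB5 was -0.12 when recomputed from all cycles. *igm* in GB10 against GB5 was 0.00952 with the mean of the other genes, 0.13 in fish with all genes, and between -0.19 and 0.14 when leaving out each fish. No paired analysis was possible because the fish numbers only name fish within a diet. The duplicate wells are not in the deposited values, so the precision of a cycle is unknown. Intervals were widest for *cldn3*, *cldn4* and *il10*.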
